A study of Mus musculus with 8 samples.

Results

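The collagen genes comprised 44 of the 52636 rows of the deposited expression table. They were taken by name, as every row whose gene name reads Col, a number, a and a number (such as Col4a1). RNA had been sequenced from splenic CD4+ T cells of mice of 6 to 8 weeks of age, sorted on a Foxp3-eGFP reporter into Foxp3+ regulatory cells (Tregs) and Foxp3- conventional cells (Tconvs), with 200000 cells for each library. The control mice were CD27+/- (the sample labels call them WT, and the columns of the table KO, read here as the control because no other group was left for them), and the CD70Tg mice were CD11c-Cd70tg;CD27+/-, which carry a transgene for CD70, the partner of the receptor CD27, under the promoter of the dendritic cell gene CD11c. All groups were thus heterozygous for CD27, and each of the 4 groups (control and CD70Tg Tconvs, control and CD70Tg Tregs) had 2 libraries. Before the sort, B cells, macrophages, dendritic cells, NK cells, granulocytes, erythroid cells and CD8+ cells had been removed magnetically, and for the Tconvs CD25+ cells as well, and live cells of low to moderate scatter were gated as CD3+ and CD4+. The sources used here do not say whether the libraries of a group came from separate mice, and p-values therefore measure the spread between these libraries only. The libraries are called a and b in the order of the columns, which pairs no library of one group with a library of another.

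Collagens are proteins of the extracellular matrix whose chains wind around each other as a helix. Fibrillar collagens, such as types I and III, form the fibres of connective tissue and of the reticular meshwork of the spleen, and are known mainly as products of fibroblasts and reticular cells. Type IV collagen forms the network of basement membranes, the sheets under endothelium and epithelium, in which multiplexins (types XV and XVIII), laminins, nidogens and perlecan are also found. T cells are not known as a main source of either kind.

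The values are read numbers scaled to 20 M per library (M for mega, as in Mb), and 20 is worth 1 read per M. The worth of 1 read was estimated from the spacing and frequency of low values, outside rows with clone-derived names. It gave between 6.94 and 33.37 M reads on genes in the Tconv libraries, and between 1.92 and 4.56 M in the Treg libraries. In library a of control Tconvs and library b of CD70Tg Tconvs, 1 read was worth 1.025 and 0.601. Whole numbers then show few or no gaps, and these depths rest on how often each value occurred. Clone-named rows, left out of the test, mostly did not follow the steps in Treg libraries (0.0 to 13.2% of low values). A value resting on 3 reads lay between 1.8 and 8.6 in Tconvs and between 13.1 and 31.3 in Tregs, and the highest of these belonged to library a of CD70Tg Tregs, the shallowest. Foxp3 lay between 19769 and 21367 in Tregs and between 1039 and 1497 in Tconvs, and Cd4 was at 16100 or more in every library, as the labels of the sorted cells say. A gene was tested if it reached 60 in at least 2 of the 8 libraries, which 12816 genes did, and was called at an adjusted p under 0.05 with a log2 fold change over 1 in either direction. Fold changes are on the scale of log2(value + 5), which understates those of low genes, and adjusted p-values are those of limma.

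Of the 44 collagen genes, 11 reached the minimum. These were 5 of the 11 fibrillar genes (Col1a1, Col1a2, Col3a1, Col11a2 and Col27a1), 2 of the 6 type IV genes (Col4a1 and Col4a2), both multiplexin genes (Col15a1 and Col18a1), 1 of the 9 fibril-associated FACIT genes (Col16a1) and 1 of the 4 transmembrane genes (Col23a1). None of the 6 type VI genes, the 3 short-chain network genes, the 2 genes of no other class, or Col7a1 of the anchoring fibrils reached it. The values of all 44 genes summed to 743 and 723 in control Tconvs, 753 and 780 in CD70Tg Tconvs, 1521 and 2154 in control Tregs, and 2342 and 2400 in CD70Tg Tregs. The 4 Treg libraries all lay above the 4 Tconv libraries, and both CD70Tg Treg libraries above both control Treg libraries. Lower values in a bulk sample can come from fewer cells of a type or from less RNA per cell, and these cannot be told apart here.

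**Figure D1:**
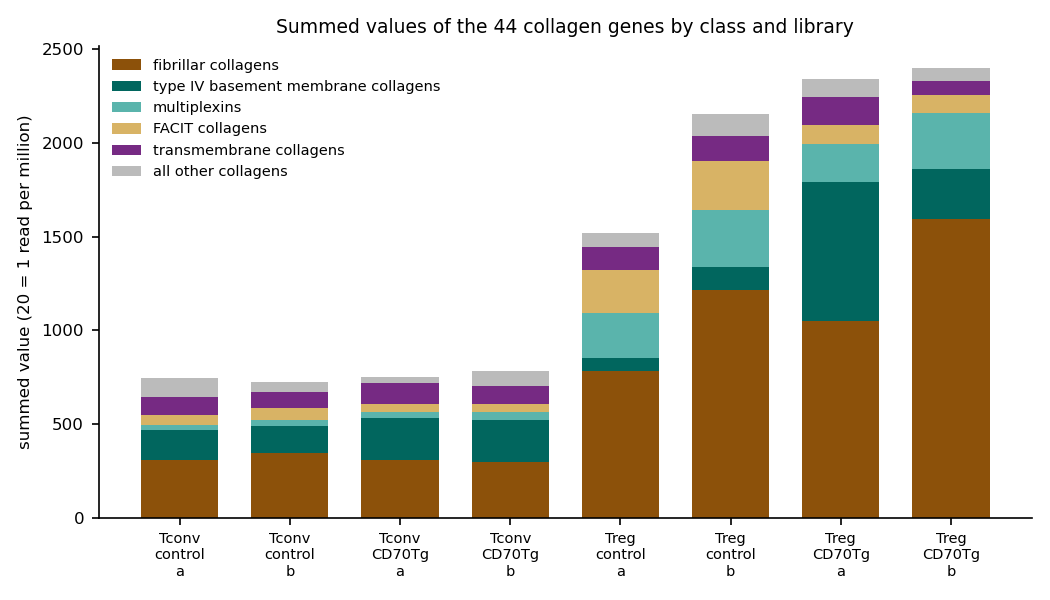
Summed values of the 44 collagen genes in each library, with 20 worth 1 read per M. Bars are stacked by collagen class and start at 0. Type IV collagens take 744 and 269 in the CD70Tg Treg libraries, against 69 and 120 in control Tregs, and fibrillar collagens are the largest class in every library.

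In Tregs, the genes that passed the test between CD70Tg and control mice were collagens of basement membranes. Col4a1, Col4a2 and Col18a1 were called higher in CD70Tg than in control Tregs, between 4.41 and 4.84-fold, and no collagen gene was called lower. Of all genes tested, 2.53% were called higher and 1.08% lower. Col18a1 reached the minimum of 60 only in the 2 CD70Tg Treg libraries, the group in which it was high, so that its entry into the test favoured a difference and the count of 3 of 11 is a description only. With a mean of at least 60 as the minimum, it was not tested. By class, these were both tested members of the type IV collagens and 1 of the 2 multiplexins, while 0 of the 5 fibrillar genes tested were called by limma, with 1 at an unadjusted p under 0.05. With limma-voom, 1 of the 11 genes was called (Col18a1), with 0 of the 2 type IV genes and 0 of the 5 fibrillar genes, of which 2 and 1 had an unadjusted p under 0.05. Of all genes, limma-voom called 1.05% higher and 0.273% lower, and 21.6% had an unadjusted p under 0.05 with limma and 13.5% with limma-voom. Of the 11 collagen genes, 5 had an unadjusted p under 0.05 with each tool. These were Col3a1, Col4a1, Col4a2 and Col18a1, which were higher, and Col15a1, which was lower. The type IV calls were also lost without library a of control or of CD70Tg Tregs. Fibrillar genes summed to 785 and 1217 in control and to 1048 and 1593 in CD70Tg Tregs, and these groups overlapped, whereas the type IV sums did not. The median log2 fold change of the 11 collagen genes was 0.55, against -0.05 over all genes tested. This median includes Col18a1 and is likewise a description only.

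Col4a1 and Col4a2 encode the chains that form the common trimer of type IV collagen, and lie head to head. In GENCODE M21 (GRCm38, the mm10 build), Col4a1 spans chr8:11198423-11312826 on the minus strand and Col4a2 chr8:11312805-11449287 on the plus strand. Their first exons overlap by 22 bases, which are shown here because the pair was called together. The stretch is from RefSeq (GRCm38.p6, chr8:11312801-11312830, plus strand), and the capitals mark the bases that belong to both first exons.
Col4a1 and Col4a2 first exons: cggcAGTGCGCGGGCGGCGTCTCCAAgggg
The shared bases hold a GC box (GGGCGG, searched on both strands), a motif present in 35.7% of the 32851 RefSeq promoters of 300 bases. Bases shared with exons of other genes made up 0.3% of the exonic bases of Col4a1 and 1.0% of those of Col4a2, and the strand setting of the counting is not given in the sources used here.

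Col4a1 was at 39 and 49 in control Tregs and at 418 and 104 in CD70Tg Tregs. Both CD70Tg libraries lay above both control libraries, but library a was far above library b. The values rested on 8 and 11 reads in the control and on 40 and 19 reads in the CD70Tg libraries, and the 95% Poisson intervals were 16.8 to 76.5 and 24 to 86.1 for the control values, and 299 to 569 and 62.2 to 161 for the CD70Tg values. These intervals cover counting error only, and those of the control libraries and of CD70Tg library b overlapped. The log2 fold change was 2.14 ± 0.47 (SE), with an adjusted p of 0.01 by limma.

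Col4a2 was at 20 and 57 in control Tregs and at 283 and 120 in CD70Tg Tregs, on 4, 13, 27 and 22 reads. Again the CD70Tg libraries lay above the control libraries, with library a the highest. The log2 fold change was 2.27 ± 0.47 (SE, adjusted p of 0.00758 by limma). Without library a of CD70Tg Tregs, the log2 fold changes were 1.16 for Col4a1 and 1.67 for Col4a2, with adjusted p-values of 0.134 and 0.106, and without library a of control Tregs they were 1.99 and 1.61, with 0.0836 and 0.123, so that neither was called in either case. With limma-voom on the recovered numbers of reads, the adjusted p-values were 0.182 and 0.106, and with no minimum value for the test 0.121 and 0.101.

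Col18a1 encodes the chain of type XVIII collagen, a proteoglycan of basement membranes whose end is cleaved off as endostatin. It was at 20 and 22 in control Tregs and at 95 and 153 in CD70Tg Tregs, on 4, 5, 9 and 28 reads. Both CD70Tg values lay above both control values, and the highest value was in library b, unlike that of the type IV genes. The 95% Poisson intervals were 5.29 to 49.7 and 7.11 to 51.1 for the control values, and 43 to 179 and 101 to 220 for the CD70Tg values, so that those of the control libraries and of CD70Tg library a overlapped. The log2 fold change was 2.27 ± 0.44 (SE, adjusted p of 0.0048 by limma), and adjusted p-values lay between 0.00556 and 0.0468 when 1 of the 8 libraries was left out. The genes tested were kept the same in these fits, although without either CD70Tg Treg library Col18a1 would have had 1 library at the minimum. With no minimum value its adjusted p was 0.0535 and it was not called. Col18a1 lies at chr10:77052178-77166548 on the minus strand. The 120 bases before its upstream start (RefSeq, GRCm38.p6, chr10:77166549-77166668, minus strand) are shown because they hold 3 GC boxes, in capitals, each read here on the other strand as CCGCCC.
Col18a1 before its upstream start: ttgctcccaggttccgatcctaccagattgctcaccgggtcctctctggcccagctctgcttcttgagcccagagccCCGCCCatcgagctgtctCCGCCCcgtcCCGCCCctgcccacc
GC boxes were present in 23 of the 38 RefSeq promoters of collagen genes, which belong to 35 of the 44, and in 35.7% of all promoters. The TATA box (TATAAA) was present in 5 of these 38 and in 13.6% of all promoters, the CCAAT box (CCAAT) in 13 and 37.4%, the AP-1 motif (TGANTCA) in 1 and 7.81%, the NFAT core (GGAAAA) in 11 and 23.4%, and the T-box motif (TCACACCT) in 0 and 1.28%. All were searched on both strands.

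Col15a1, the other multiplexin, did not follow Col18a1. It was at 219 and 281 in control Tregs and at 105 and 147 in CD70Tg Tregs, with all control values above all CD70Tg values. The log2 fold change was -0.97 ± 0.41 (SE) and the adjusted p 0.171 by limma, so that it was not called.

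**Figure D2:**
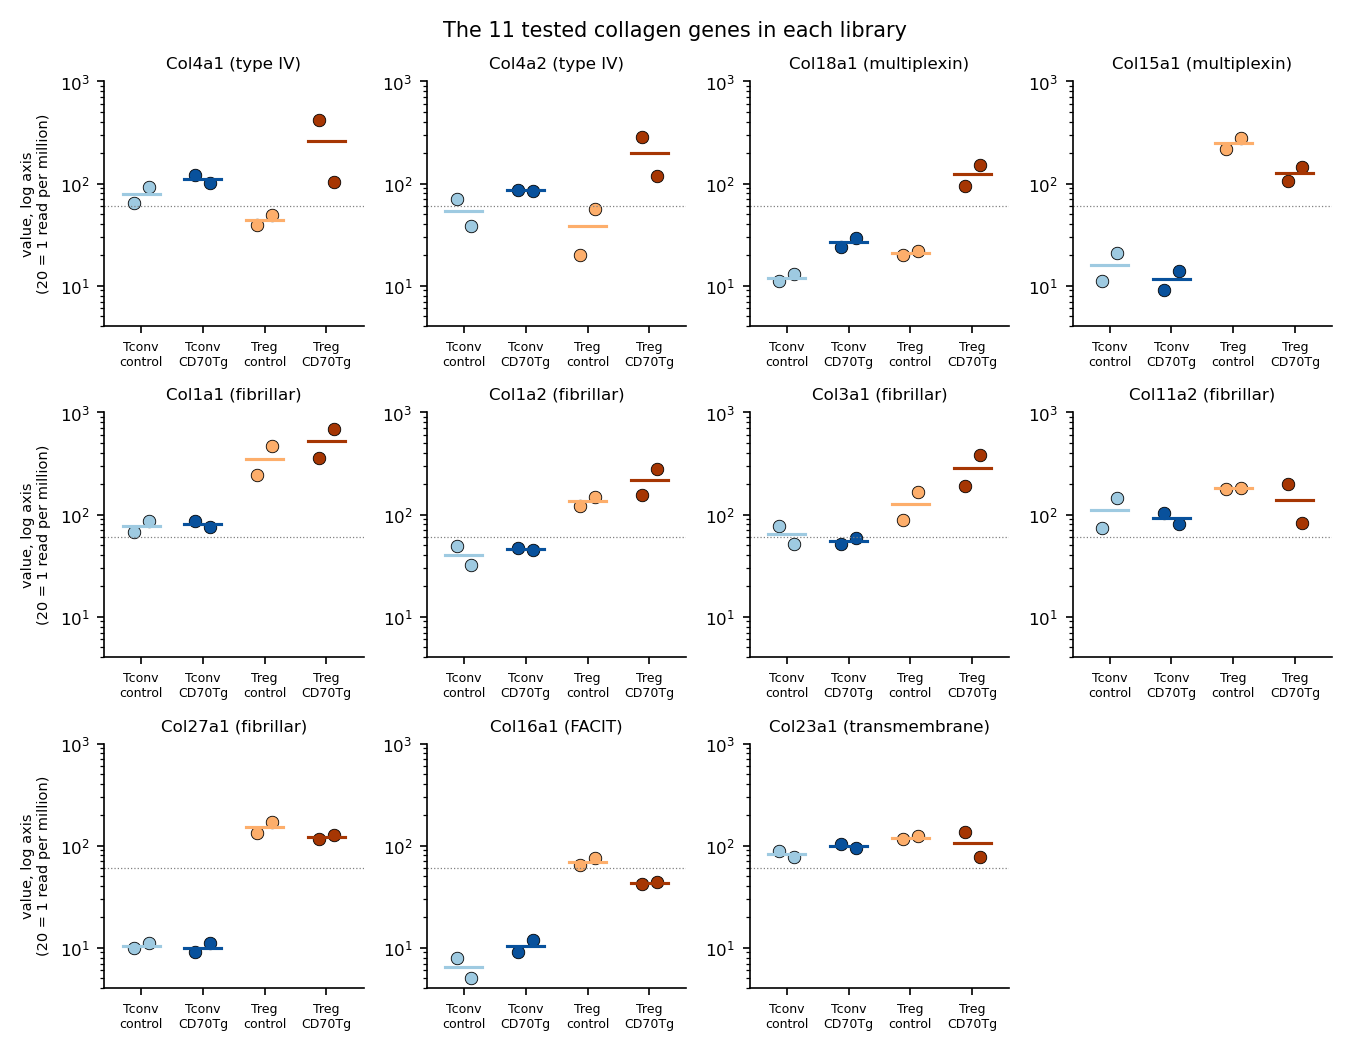
Values of the 11 tested collagen genes in each library on a log axis, with 20 worth 1 read per M. Points are libraries, with library a to the left of b, horizontal lines are group means and the dotted line is the minimum of 60. In Tregs, Col4a1, Col4a2, Col18a1, Col1a2 and Col3a1 are higher in both CD70Tg libraries than in both control libraries. Col15a1, Col16a1 and Col27a1 are lower in both. Of these genes, Col4a1, Col4a2 and Col18a1 were called.

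The fibrillar genes had the highest summed values of any collagen class in Tregs, and those tested were not called between CD70Tg and control Tregs. Col1a1 and Col1a2 encode the chains of type I collagen, the main fibre of connective tissue. Col1a1 was at 243 and 465 in control and at 356 and 686 in CD70Tg Tregs, and the groups overlapped. Col1a2 was at 122 and 149 in control and at 157 and 278 in CD70Tg Tregs, with no overlap. Their log2 fold changes were 0.55 ± 0.34 and 0.62 ± 0.36 (SE), with adjusted p-values of 0.38 and 0.347 by limma.

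Col3a1, the chain of type III collagen of reticular fibres, came closest of the fibrillar genes to being called. It was at 88 and 167 in control and at 189 and 381 in CD70Tg Tregs. The CD70Tg values were higher without overlap, with a log2 fold change of 1.11 ± 0.39 (SE) and an adjusted p of 0.0947 by limma. Its unadjusted p was 0.0109. Without library a of CD70Tg Tregs, in which it was lower than in library b, it passed with a log2 fold change of 1.61 and an adjusted p of 0.0498. Without library b of CD70Tg Tregs or library a of control Tregs, its log2 fold change was 0.62 and 0.67, with adjusted p-values of 0.489 and 0.57.

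Col11a2 and Col27a1, chains of minor fibrils best known from cartilage, had lower means in CD70Tg Tregs and were not called. Col11a2 was at 180 and 184 in control and at 199 and 82 in CD70Tg Tregs, and Col27a1 at 132 and 171 in control and at 115 and 126 in CD70Tg Tregs. Their log2 fold changes were -0.49 ± 0.39 and -0.31 ± 0.40 (SE), with adjusted p-values of 0.517 and 0.716 by limma. The FACIT gene Col16a1, whose product sits on the surface of fibrils, was at 64 and 75 in control and at 42 and 44 in CD70Tg Tregs. Col23a1, a transmembrane collagen, was at 117 and 123 in control and at 136 and 77 in CD70Tg Tregs. Neither of these was called, with log2 fold changes of -0.63 ± 0.47 and -0.22 ± 0.33 (SE) and adjusted p-values of 0.479 and 0.766.

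In Tconvs, 0 of the 11 collagen genes were called by limma, against 4.07% of all genes called higher and 0.577% called lower. None had an unadjusted p under 0.05, and with limma-voom 0 were called and 1 (Col18a1) had an unadjusted p under 0.05. Of all genes, 19.1% had an unadjusted p under 0.05 with limma and 27.7% with limma-voom, which called 5.49% higher and 1.23% lower. The median log2 fold change of the 11 genes was 0.19, against 0.01 over all genes tested. The genes that rose in Tregs had the highest fold changes here too, although short of the threshold. Col18a1 was at 11 and 13 in control and at 24 and 29 in CD70Tg Tconvs, with no overlap, a log2 fold change of 0.89 ± 0.44 (SE) and an adjusted p of 0.297. Col4a1 was at 65 and 93 in control and at 122 and 102 in CD70Tg Tconvs, and Col4a2 at 71 and 38 and at 87 and 85. Their log2 fold changes were 0.49 ± 0.47 and 0.67 ± 0.47 (SE), with adjusted p-values of 0.665 and 0.519.

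For the fibrillar genes of types I and III, the Tconv groups overlapped. Col1a1 was at 68 and 86 in control and at 87 and 76 in CD70Tg Tconvs, Col1a2 at 49 and 32 and at 47 and 45, and Col3a1 at 78 and 51 and at 52 and 59. The log2 fold changes were 0.08 ± 0.34, 0.19 ± 0.36 and -0.18 ± 0.39 (SE). Col11a2 was at 74 and 147 in control and at 104 and 81 in CD70Tg Tconvs, and Col23a1 at 89 and 78 and at 104 and 94. Col15a1 (11 and 21, then 9 and 14), Col27a1 (10 and 11, then 9 and 11) and Col16a1 (8 and 5, then 9 and 12) stayed at or under 21 in all 4 Tconv libraries.

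**Figure D3:**
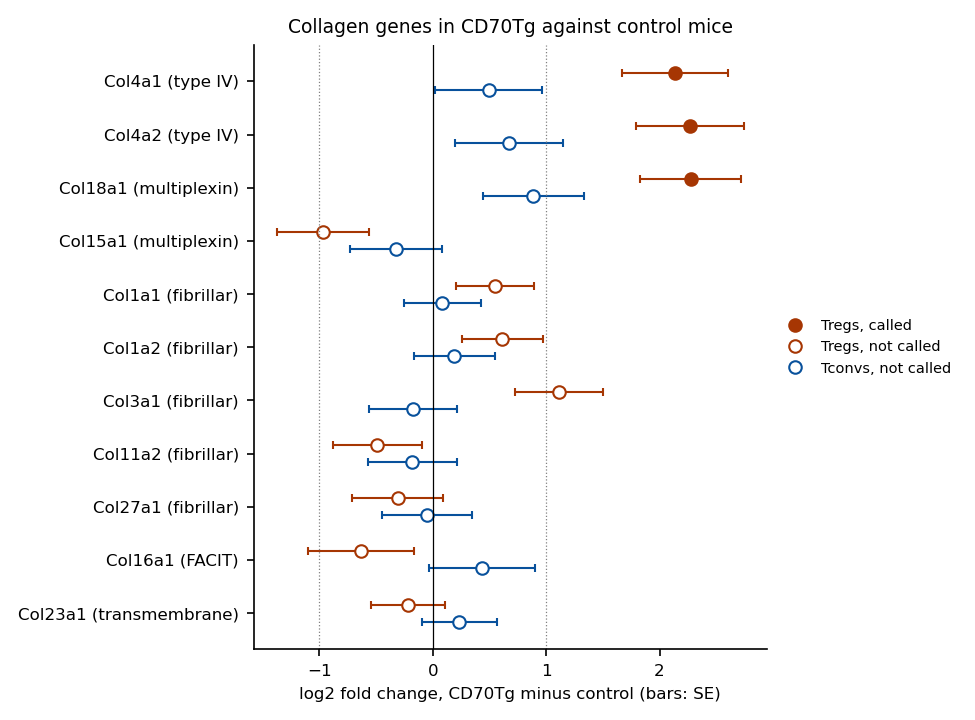
Log2 fold change of the 11 tested collagen genes in CD70Tg against control mice, in Tregs and in Tconvs. Bars are standard errors from the fit, filled points were called and dotted lines mark a log2 fold change of 1 in either direction. Col4a1, Col4a2 and Col18a1 lie between 2.14 and 2.27 in Tregs and between 0.49 and 0.89 in Tconvs.

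The difference between the Treg and the Tconv responses was tested in the same fit. It was called for 0 of the 11 collagen genes by limma and for 0 by limma-voom, against 0.148% of all genes called higher and 0.733% called lower by limma, and 0.0624% and 0.343% by limma-voom. An unadjusted p under 0.05 was reached by 4 genes, namely Col4a1, Col4a2, Col18a1 and Col3a1 (2 with limma-voom), and by 10.7% of all genes (9.43% with limma-voom). The difference was 1.65 ± 0.66 for Col4a1, 1.60 ± 0.67 for Col4a2, 1.39 ± 0.63 for Col18a1 and 1.29 ± 0.55 for Col3a1 (log2, SE), with adjusted p-values between 0.359 and 0.437. A stronger rise in Tregs was therefore not shown. Without library b of CD70Tg Tregs, the difference was called for Col4a1, at 2.62 with an adjusted p of 0.0204, and without library a of CD70Tg Tregs it was 0.67 with an adjusted p of 0.758.

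Replicates differed widely for the type IV genes. The residual SD within groups (log2) was 0.73 for Col4a1 and 0.69 for Col4a2, against a median of 0.18 over all genes tested. Among the tenth of genes with the nearest mean values, these are above 97.6% and 96.7% of the genes. Col1a1 (0.48), Col3a1 (0.52) and Col11a2 (0.56) were also variable, with 94.3%, 87% and 90% in the same comparison. Col18a1, at 0.26, was above 16.1% of genes with similar values, and Col16a1 (0.18) and Col27a1 (0.16) were among the steadiest. In CD70Tg Tregs, the highest values were in library a for Col4a1, Col4a2, Col11a2 and Col23a1, and in library b for the other 7 tested genes.

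Tregs and Tconvs differed in collagens of several classes already in control mice. Col1a1, Col1a2, Col15a1, Col16a1 and Col27a1 were called higher in control Tregs than in control Tconvs, 5 of the 11 genes tested, against 14.7% of all genes, and 0 were called lower, against 4.43%. In CD70Tg mice, 7 of 11 were called higher in Tregs (the same 5 genes with Col3a1 and Col18a1), against 12.3% of all genes, and 0 lower, against 4.94%. Of the genes called, Col1a2, Col15a1 and Col27a1 reached the minimum of 60 only in Treg libraries, Col16a1 only in those of control Tregs and Col18a1 only in those of CD70Tg Tregs. These genes entered the test through the subset in which they were high, and the counts are therefore a description only. These comparisons share libraries with those of CD70Tg against control mice. Of the 5 fibrillar genes tested, 3 were called in control and 4 in CD70Tg mice. The median log2 fold change of the 11 genes was 0.89 in control and 2.00 in CD70Tg mice, and that of all genes tested 0.07 and -0.02. These medians include the genes that entered the test through the subset in which they were high, and are likewise a description only.

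**Figure D4:**
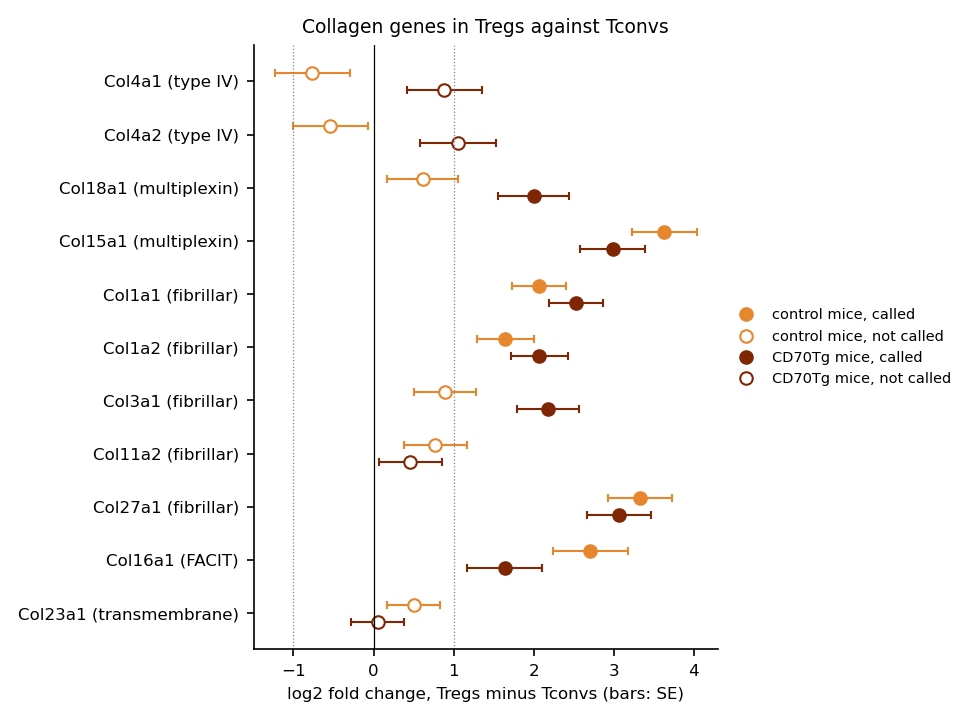
Log2 fold change of the 11 tested collagen genes in Tregs against Tconvs, in control and in CD70Tg mice. Bars are standard errors from the fit, filled points were called and dotted lines mark a log2 fold change of 1 in either direction. Col15a1 and Col27a1 have the highest values in both kinds of mice, and Col4a1 and Col4a2 are the genes with values below 0 in control mice.

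The largest gaps between the subsets were those of Col15a1 and Col27a1. With the values given above, Col15a1 had a mean of 250 in control Tregs and 16 in control Tconvs, and a log2 fold change of 3.63 ± 0.41 (SE, adjusted p of 2.50e-06 by limma). For Col27a1 the means were 151.5 and 10.5, with a log2 fold change of 3.33 ± 0.40 (SE, adjusted p of 5.53e-06). Col16a1 had means of 69.5 and 6.5 and a log2 fold change of 2.70 ± 0.47 (SE, adjusted p of 2.08e-04). In CD70Tg mice the log2 fold changes of these genes were 2.99 ± 0.41, 3.07 ± 0.40 and 1.64 ± 0.47 (SE), and all were called, the last of them not without library a of CD70Tg Tconvs (adjusted p of 0.059). The first lies at chr4:47208161-47313167, the second at chr4:63214004-63334991 and the third at chr4:130047840-130099283, all on the plus strand.

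The type I genes were higher in Tregs in both kinds of mice. The means of Col1a1 were 354 in control Tregs and 77 in control Tconvs, a log2 fold change of 2.07 ± 0.34 (SE, adjusted p of 1.30e-04 by limma), and 521 and 81.5 in CD70Tg mice, a log2 fold change of 2.53 ± 0.34. For Col1a2 the log2 fold changes were 1.65 ± 0.36 and 2.07 ± 0.36 (SE). Col3a1 was not called in control mice (0.89 ± 0.39, adjusted p of 0.0709, with 0.45 to 1.33 and adjusted p-values of 0.492 to 0.0274 when 1 library was left out) and was called in CD70Tg mice (2.18 ± 0.39, adjusted p of 3.28e-04). Col18a1 likewise was not called in control mice (0.61 ± 0.44, adjusted p of 0.272) and was called in CD70Tg mice (2.00 ± 0.44, adjusted p of 0.00188). The change of these gaps with the transgene is the difference between the responses given above, which was not called.

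Type IV genes showed no called difference between the subsets. In control mice Col4a1 was lower in Tregs (39 and 49) than in Tconvs (65 and 93), with a log2 fold change of -0.77 ± 0.47 (SE) and an adjusted p of 0.196 by limma. In CD70Tg mice the log2 fold changes were 0.88 ± 0.47 for Col4a1 and 1.06 ± 0.47 for Col4a2, with adjusted p-values of 0.142 and 0.0823. Without library b of CD70Tg Tregs both were called here, with log2 fold changes of 1.86 and 1.66 and adjusted p-values of 0.00173 and 0.0222, and Col4a2 was also called without library a of control Tregs or with the 4 CD70Tg libraries alone. Col11a2 and Col23a1 were not called between Tregs and Tconvs in either kind of mice, with log2 fold changes between 0.05 and 0.77. Leaving out 1 library brought Col11a2 past the threshold in control mice (1.24, adjusted p of 0.0462, without library b of control Tconvs) and in CD70Tg mice (1.07, adjusted p of 0.0434, without library b of CD70Tg Tregs).

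Levels were compared between genes only as reads per kilobase of exon per M reads. In control Tregs the highest mean level on this scale was that of Col1a1 (2.7), followed by Col15a1 (1.97), Col11a2 (1.32) and Col23a1 (1.05), while Col4a1 was at 0.295 and Col18a1 at 0.15. The libraries of Col1a1 (1.85 and 3.54) overlapped those of Col15a1 (1.72 and 2.21), so that these 2 could not be put in order. In CD70Tg Tregs, Col1a1 (3.97) was followed by Col4a1 (1.75), Col4a2 (1.52) and Col3a1 (1.45), and Col18a1 was at 0.883. Col4a1, Col4a2 and Col3a1 could not be put in order, since the 2 libraries of each lay further apart than these means, and the libraries of Col1a1 (2.71 and 5.23) overlapped those of Col4a1 (2.8 and 0.697). In control Tconvs, Col11a2 (0.804), Col23a1 (0.728), Col1a1 (0.587) and Col4a1 (0.529) had the highest means. Of the neighbours in this order, only Col23a1 and Col1a1 did not overlap in their libraries. Every collagen gene was thus below 4 reads per kilobase per M in each group mean.

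The 33 collagen genes under the minimum were not tested. Col9a1, Col19a1, Col24a1, Col25a1 and Col28a1 were at 0 in all 8 libraries, which allows up to 3 reads per library. Another 8 genes (Col2a1, Col6a5, Col6a6, Col9a2, Col11a1, Col17a1, Col22a1 and Col26a1) were above 3 reads in no library, and 13 were above 3 reads in some library but never in both libraries of a group, with no value above 27. This last set held the 4 remaining type IV genes, Col4a3, Col4a4, Col4a5 and Col4a6, none of which was above 21.

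The remaining 7 were above 3 reads in both libraries of at least 1 group. Col14a1 and Col20a1, both of the FACIT class, reached 60 in 1 library. Col14a1 was at 49 and 84 in control Tregs and at 0 in both CD70Tg Treg libraries, and at 11 and 28 in control and 3 and 7 in CD70Tg Tconvs. Taking 3 reads per library in its place, it was at least 2.79-fold lower in CD70Tg than in control Tregs. With no minimum value it was the only collagen gene called in Tregs, with an adjusted p of 0.0268 by limma. Col20a1 was at 59 and 66 in control and at 32 and 22 in CD70Tg Tregs, and Col9a3 at 30 and 27 and at 11 and 11. Values of the 9 FACIT genes summed to 227 and 261 in control and to 106 and 94 in CD70Tg Tregs, so that this class was lower in CD70Tg Tregs by its summed values, without a test.

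Col7a1, Col6a1, Col6a2 and Col5a2 were the others of these 7. Col7a1, of anchoring fibrils, was at 34 and 18 in control Tregs and at 32 and 11 in CD70Tg Tregs. Col6a1 and Col6a2 encode chains of the beaded filaments of type VI collagen, and were above 3 reads in both control Tconv libraries (30 and 17 for Col6a1, 26 and 9 for Col6a2). Col5a2, a partner of type I collagen in fibrils, stayed at or under 22 in all libraries.

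Other proteins of the basement membrane were read from a list of 16 genes, of which 8 were tested. In Tregs, Hspg2 and Sparc were called higher and Agrn lower in CD70Tg mice, against 2.53% of all genes higher and 1.08% lower. Hspg2, the core protein of perlecan, was at 20 and 22 in control and at 136 and 82 in CD70Tg Tregs, a log2 fold change of 2.09 ± 0.44 (SE, adjusted p of 0.00813 by limma), and reached 60 in these CD70Tg libraries only. Sparc, a collagen-binding protein, was at 78 and 149 and at 314 and 202 (1.19 ± 0.32, adjusted p of 0.0339). Agrn, agrin, was at 403 and 495 and at 230 and 196 (-1.06 ± 0.23, adjusted p of 0.00911).

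In Tconvs, Lamc1 and Lamb3 of the same list were called higher, against 4.07% of all genes. Lamc1, the laminin chain found in most basement membranes, was at 107 and 113 in control and at 358 and 617 in CD70Tg Tconvs (2.05 ± 0.19, adjusted p of 1.57e-06 by limma), and at 3810 and 4261 in control and 5705 and 5802 in CD70Tg Tregs (0.51 ± 0.19, adjusted p of 0.118). Lamb3 was at 147 and 107 in control and at 228 and 322 in CD70Tg Tconvs (1.08 ± 0.25, adjusted p of 0.0102). Hspg2 and Sparc were not called in Tconvs, with log2 fold changes of 0.07 ± 0.44 and 0.38 ± 0.32.

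Genes that act on collagen chains, collagen receptors and proteases stand against the same shares of all genes (2.53% higher and 1.08% lower in Tregs, 4.07% higher and 0.577% lower in Tconvs). Of the 18 genes for modification and folding, 10 were tested, and Plod2, a lysyl hydroxylase, was called higher in Tregs (25 and 27, then 74 and 87) and in Tconvs (25 and 19, then 67 and 127), and reached 60 in the CD70Tg groups only. Of the 12 genes for processing and crosslinking, 3 were tested and 0 were called by limma in either subset, with 1 (Adamts14) at an unadjusted p under 0.05 in Tregs and 0 in Tconvs. Serpinh1, a chaperone that collagen folding requires, lay between 22 and 53 in all 8 libraries and was not tested.

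Of the 10 collagen receptor genes, 6 were tested, and 3 of them were called higher in CD70Tg Tconvs, against 4.07% of all genes. Itga1, the alpha chain of a collagen-binding integrin, was at 24 and 30 in control and at 122 and 294 in CD70Tg Tconvs (2.61 ± 0.47, adjusted p of 0.00143 by limma), and Itga2, another of these, was at 100 and 118 and at 225 and 290 (1.20 ± 0.24, adjusted p of 0.0031). Mrc2, an uptake receptor for collagen, was at 11 and 17 and at 96 and 72 in Tconvs (2.23 ± 0.51, adjusted p of 0.00945). Itga1 and Mrc2 reached 60 only in CD70Tg Tconvs, the group in which they were high. Mrc2 was the 1 receptor called higher in Tregs, where it was listed at 0 in both control libraries and at 21 and 33 in CD70Tg libraries. The value of 21 is under that of 3 reads in its library (31.3), so that no fold is given. Of the proteases that cleave collagen, 4 of 10 were tested. Mmp9 was called higher in CD70Tg Tregs (321 and 272, then 617 and 854), and Mmp14 lower in CD70Tg Tconvs (204 and 105, then 41 and 43). Among the genes of these lists that were tested, the difference between the Treg and the Tconv response was called for Lamc1.

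Markers of other cell types were read beside these results. The 10 markers of fibroblasts and reticular cells were all under the minimum of the test, and summed to between 66 and 83 in Tconvs, 35 and 64 in control Tregs and 75 and 79 in CD70Tg Tregs. No marker of the list was above 32 in Tregs or above 26 in Tconvs, and Lum and Ccl19 were at 0 in all 4 Treg libraries, where 0 allows up to 3 reads. Dpt was at 10 and 22 in control and at 32 and 28 in CD70Tg Tregs, against 3 to 16 in Tconvs. Dcn was at 0, 0, 0 and 6 in Tregs against 14 to 26 in Tconvs, and Pdgfrb at 5 to 11 against 13 to 18. All Treg values of Dcn and Pdgfrb lay under the value of 3 reads in their libraries (13.1 to 31.3). A difference from Tconvs is therefore not shown for these genes. The part of fibroblast RNA in the values of the fibrillar genes was not tested.

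Endothelial markers were in part highest in the library in which the type IV genes were highest. Of the 10 markers, 5 were tested, and Plvap, a protein of fenestrated endothelium, was called higher in CD70Tg Tregs, against 2.53% of all genes, at 49 and 141 in control and 429 and 169 in CD70Tg libraries (1.63 ± 0.46, adjusted p of 0.0409 by limma). Stab2, a receptor of sinusoidal endothelium, was at 107 and 149 and at 304 and 169 (0.82 ± 0.45, adjusted p of 0.321). Without Pecam1, which was at 3208 or more in every library, the other 9 markers summed to 261 and 402 in control Tregs, to 997 and 504 in CD70Tg Tregs, and to between 276 and 387 in Tconvs. Their sum was highest in library a of CD70Tg Tregs, as were Col4a1 and Col4a2. In that library 4 of the 10 markers (Plvap, Stab2, Cdh5 and Kdr) had the highest value of the 8 libraries at more than 3 reads, and Emcn had it with 1 read (11). The other 5 did not, with Vwf at 0, Tek at 11, Flt1 and Esam at 21 and Pecam1 at 3344. The share of all genes with their highest value in this library, the shallowest, was not counted, and the count of markers is a description only. As given above, the sequenced cells had been gated as CD3+ and CD4+. The part of endothelial RNA in the rise of the type IV genes was not tested.

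**Figure D5:**
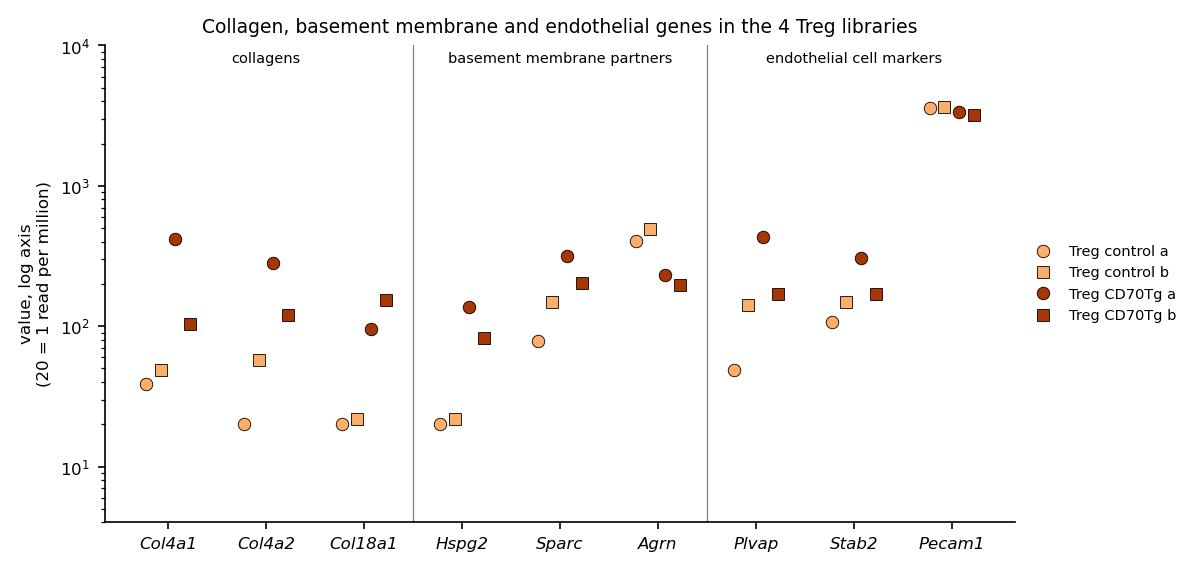
Values of collagen, basement membrane and endothelial genes in the 4 Treg libraries on a log axis, with 20 worth 1 read per M. Points are libraries, with circles for library a and squares for library b. In CD70Tg library a, Col4a1 (418), Col4a2 (283), Plvap (429) and Stab2 (304) all have their highest values, whereas Pecam1 is level and Col18a1 is highest in library b.

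Further marker lists also differed between the Treg groups. The counts called in these lists stand against 2.53% of all genes called higher and 1.08% called lower in Tregs. Erythroid markers summed to 439 and 1162 in control and to 2719 and 1727 in CD70Tg Tregs, with Hba-a1 and Hbb-bs called higher among 3 tested of 5. Neutrophil markers summed to 5 and 10 and to 244 and 216, with S100a9 called higher, the 1 tested of 7. Dendritic cell markers summed to 99 and 156 and to 410 and 378, with Zbtb46 called higher among 2 tested of 6. S100a9 and Zbtb46 reached 60 only in the 2 CD70Tg Treg libraries, the group in which they were high. Cd8a was called higher among the 2 CD8 markers (25 and 71, then 262 and 223), and Klrb1c lower among the 4 NK markers (1 tested). Both were called in the same direction in Tconvs, against 4.07% of all genes higher and 0.577% lower. Cd8a was there at 17 and 28, then 508 and 608, and Klrb1c at 403 and 423, then 75 and 68. In Tregs, Itgam was called higher and Mrc1 lower among the 11 of 13 macrophage markers tested, and 0 of the 7 T cell, the 6 Treg and the 3 tested of 6 B cell markers were called by limma. Between the subsets, the 13 macrophage markers summed to between 4612 and 5594 in Tregs and between 1539 and 2237 in Tconvs, and the 6 B cell markers, mostly Ighm, to between 37137 and 49570 and between 10034 and 12504. Within Tregs, the macrophage sums were 5534 and 5594 in control and 4656 and 4612 in CD70Tg libraries. The B cell sums were 37137 and 41505 in control and 49570 and 49415 in CD70Tg Tregs. The 4 plasma cell and the 6 platelet markers were all under the minimum. The part of these cells in the values of the collagen genes was not tested.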

How the data were processed

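RNA of sorted splenic Tregs and Tconvs was sequenced in 8 libraries, 2 for each of 4 groups. Per the labels and the submitters' processing notes, reads were trimmed with Trimmomatic 0.36, aligned with STAR 2.5.3 to mm10 and counted with HTSeq 0.9.1. The values are a score that the authors deposited after scaling each library to 20 M and rounding up to whole numbers. A test on counts could therefore not be the main one, and limma 3.58.1 (R 4.3.3), with a trend, was run on log2(value + 5) in place of the DESeq2 test of the study. All 8 libraries entered 1 fit with 4 group means and 5 contrasts. Genes with at least 60 in 2 libraries were tested (12816), without 4131 rows with clone-derived names, and p-values were adjusted by Benjamini-Hochberg within a contrast. The spacing and frequency of low values gave an estimate of the worth of 1 read in each library, and the numbers of reads for limma-voom and for Poisson intervals. Depth was 1.92 to 33.37 M reads. Positions and exon lengths were from GENCODE M21 (GRCm38), sequences from RefSeq (GRCm38.p6). No protein sequence was used here. The script was tested on simulated data.

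A gene of the basement membrane list was left out and is not reported here. The members and gene lists were chosen with earlier results of these data known, and none is independent support for a pattern. Named were all tested collagens, the others by the number of libraries above 60 or above 3 reads, up to 5 called genes of each list by fold change, and up to 3 tested markers of each cell type. Col4a3, Col4a4, Col4a5, Col4a6, Col5a3, Serpinh1, Adamts14, Lum, Ccl19, Dpt, Dcn, Pdgfrb, Cdh5, Kdr, Emcn, Vwf, Tek, Flt1, Esam, Cd4 and the collagens named as above 3 reads in no library were named outside this rule, after their values were seen. The alternatives were other pseudocounts, minimum values, scalings, tests, thresholds and rows, and leaving out each library.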

Additional observations from a re-analysis of the deposited data

Results flagged for a closer look

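The response of Lamc1, the laminin gamma 1 chain, differed between the subsets by a test of the difference itself. The Treg response minus the Tconv response was -1.53 ± 0.27 on the log2 scale (SE), with an adjusted p of 0.00867 by limma. Lamc1 rose in both CD70Tg Tconv libraries (107 and 113 in control, 358 and 617 in CD70Tg Tconvs), and was at 3810 and 4261 in control and at 5705 and 5802 in CD70Tg Tregs, so that the level in Tregs was the higher one in both kinds of mice.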

How the results depend on the processing

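The 3 collagen genes called in CD70Tg Tregs became 1 with no minimum value (Col14a1, which was otherwise not tested) and 1 with limma-voom (Col18a1), and between 1 and 3 when a library was left out (Col18a1 without library a of control Tregs, Col18a1 and Col3a1 without library a of CD70Tg Tregs). Col4a1 and Col4a2 were each called in 14 of 18 alternatives, with log2 fold changes of 1.16 to 3.12 and 1.61 to 2.92, and Col18a1 in 16 of 17, with 1.78 to 2.60 and an adjusted p of 0.0535 with no minimum. The count of 0 for the difference between responses became 0 to 1 when a library was left out. The 5 genes higher in control Tregs than in control Tconvs became 3, and the 7 in CD70Tg mice 4, with a value above 10 in every library, where Col15a1, Col16a1 and Col27a1 were not tested and Col20a1 was tested and called in control mice. Leaving out a library gave 5 to 6 and 6 to 10. For Tconvs the count was 0 under every alternative.

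Values of genes that were not called changed sign when a library was left out. The ranges were -1.10 to 0.13 (Col11a2) and -0.61 to 0.17 (Col23a1) in Tregs. In Tconvs they were -0.65 to 0.29 (Col11a2), -0.67 to 0.028 (Col15a1), -0.076 to 0.24 (Col1a1), -0.083 to 0.46 (Col1a2), -0.15 to 0.047 (Col27a1) and -0.46 to 0.11 (Col3a1), with 0.003 for Col27a1 under limma-voom. They were -0.92 to 0.30 (Col11a2) and -0.002 to 0.93 (Col1a1) for the difference, -1.19 to 0.12 (Col4a2) between control Tregs and Tconvs, and -0.15 to 1.07 (Col11a2), -0.34 to 0.44 (Col23a1) and -0.10 to 1.86 (Col4a1) in CD70Tg mice. A group left with 1 library was assumed to vary like the others. No paired analysis was possible because the columns of the table carry no replicate numbers that can be tied to the titles. Depth limits the Treg values most, where 3 reads are worth up to 31.3.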
